A study of Mus musculus with 13 samples.

Results

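The comparison set splenic CD205+CD8+ dendritic cells sorted as CD103 high against those sorted as CD103 low, from mice that received PBS without any stimulus. It rests on 7 of the 13 arrays of the series, chosen by their titles: 3 arrays of PBS CD103 high and 4 of PBS CD103 low cells. All mice were C57Bl/6 littermates, labelled male and 6 weeks old, and all of them, controls included, bore B16 melanoma cells under the skin that release Flt3L, a cytokine that drives dendritic cell production. The tumour had grown for 5 days when the mice received 100 ul of PBS into the peritoneum, and the spleens were taken 24 h later, digested with collagenase D and sorted by flow cytometry. The other 6 arrays, 3 of CD103 high and 3 of CD103 low cells, come from mice given 50 ug of muramyl dipeptide (MDP), the ligand of the receptor NOD2, in the same volume. They enter here through the shared estimate of the spread and as a second pair of groups. From each sample 400 ng of RNA was pre-amplified for the array. The sources do not say whether every array stands for a separate mouse, and the p-values therefore measure the spread between these samples, which may be technical.

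CD103 is the αE chain of the integrin αEβ7, which binds E-cadherin and is encoded by Itgae. Its partner chain β7 is encoded by Itgb7. On dendritic cells it is known as a marker of the type 1 conventional lineage (cDC1), whose development needs the transcription factors IRF8 and BATF3, which takes up dead cells and presents their antigens to CD8 T cells, and which in the spleen carries CD8α and CD205. TGF-β and GM-CSF are both known to raise CD103 on dendritic cells, so the level of this integrin can differ between cells of one lineage.

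All values are log2 probe set values, and a difference is CD103 high minus CD103 low on that scale, with the SE from the fit over all arrays. The 1105 olfactory receptor genes, which these cells are not known to use, gave a measure of background with a 95th percentile of 5.12, and 11716 of 22180 genes had a mean above it. The sorted cells had the transcripts of their lineage in both gates. Cd8a had means of 10.39 in CD103 low and 10.41 in CD103 high cells, Ly75 (CD205) 9.29 and 9.33, Irf8 12.23 and 12.26, Batf3 11.17 and 11.18, and the chemokine receptor Xcr1 9.97 and 10.09. Of 23 measured cDC1 genes, Itgae included, 18 lay above 0, against 48.9% of all genes, with a median of 0.03. Cadm1 was at 10.60 to 10.62 in CD103 low and 10.72 to 10.85 in CD103 high arrays (0.20 ± 0.06, adjusted p = 0.389, limma). Tlr11 (0.13) also did not overlap between the gates.

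The arrays differed in ways that the groups do not explain. Although all mice are labelled male, 7 arrays had Xist at 10.98 to 11.21 and the other 6 had it at 4.47 to 6.69 with the mean of 3 Y-linked genes at 7.85 to 8.21. Both kinds occur in both PBS groups, with 2 and 2 arrays among CD103 low cells and 2 and 1 among CD103 high cells. The replicate numbers of the labels also separated the arrays. Ccl3, an inflammatory chemokine, lay between 8.59 and 9.37 in the 7 arrays numbered 1 to 3 and between 6.06 and 7.07 in the 6 arrays numbered 4 to 6. PBS CD103 low and MDP CD103 high cells hold both sets of numbers. MDP CD103 low cells hold only numbers 1 to 3 and PBS CD103 high cells only numbers 4 to 6, so in these groups set and group cannot be told apart. The mean of 24 stress and dissociation genes was 10.35 to 10.51 in those numbered 1 to 3 and 9.85 to 10.22 in the rest. PBS CD103 low cells hold replicates 1, 3, 4 and 6 and PBS CD103 high cells replicates 4, 5 and 6, so results are also given within numbers 4 to 6, within each Xist kind and within the shared numbers 4 and 6.

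Few genes differed between the gates. In limma, 17 of 22180 genes (0.0766%) had a Benjamini-Hochberg adjusted p under 0.05, which is the threshold for a call here. Of these, 10 were higher (0.0451% of all genes) and 7 lower (0.0316%) in CD103 high cells. The median difference over all genes was -0.003, and 48.9% of them lay above 0. At an unadjusted p under 0.05 in limma, 4.33% of all genes were higher and 4.19% lower. Besides Itgae, the gene of the sorted protein, 2 of the 17 genes had the largest differences. These were a lower Emb, which encodes a partner of lactate transporters, and a higher Plpp3, which encodes a phosphatase of signalling lipids. In bulk RNA of sorted cells, fewer cells with a transcript and less of it per cell cannot be told apart. For each of the 17 genes no CD103 high array overlapped the CD103 low ones. Each therefore had the same sign within both Xist kinds, within numbers 4 to 6 and within both shared numbers. This follows from the lack of overlap in the same arrays and is no separate support.

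**Figure D1:**
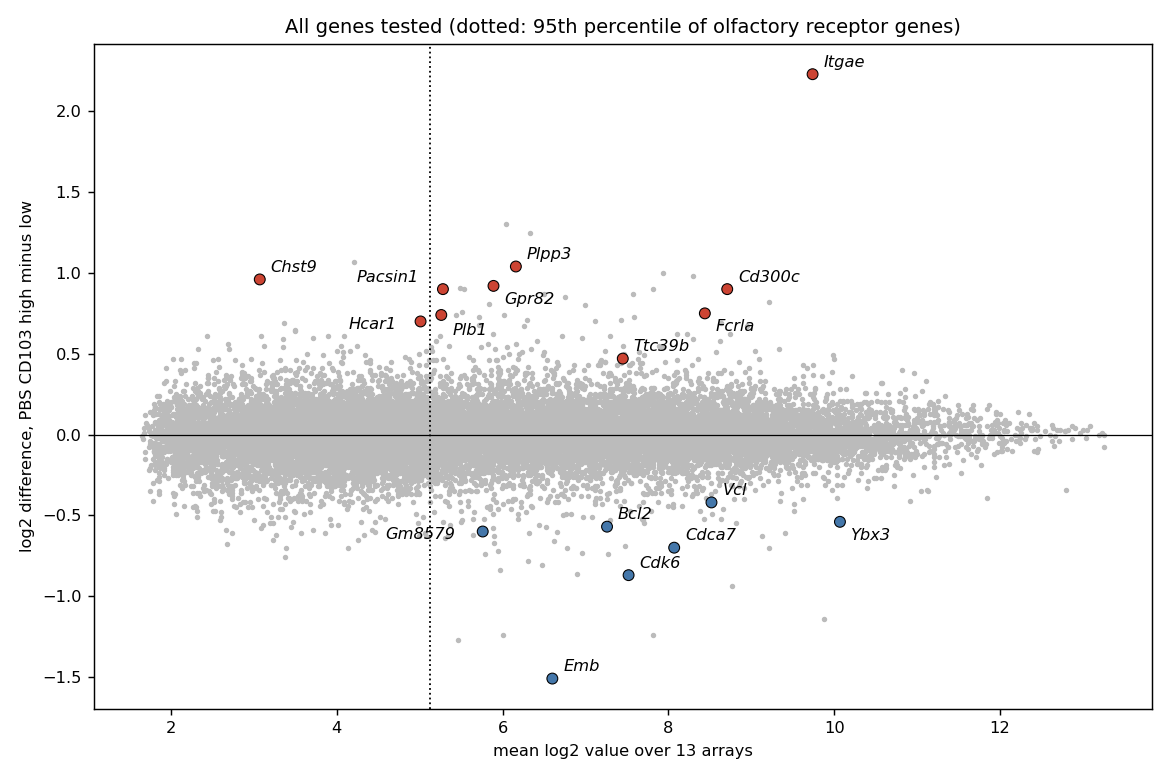
Each point is 1 of 22180 genes, with the mean log2 value over 13 arrays on the horizontal axis and the log2 difference between PBS CD103 high (3 arrays) and PBS CD103 low cells (4 arrays) on the vertical axis. The 10 genes called higher are red and the 7 called lower are blue; Chst9 and Hcar1 lie left of the dotted line at 5.12, the 95th percentile of the olfactory receptor genes.

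Itgae followed the sort. It was at 8.35, 8.17, 7.73 and 7.46 in the CD103 low arrays (replicates 1, 3, 4 and 6) and at 10.16, 10.22 and 10.07 in the CD103 high arrays (replicates 4, 5 and 6). The CD103 high arrays lay close together, while the CD103 low arrays spread over nearly a log2 unit. The difference was 2.23 ± 0.23 (SE, adjusted p = 0.00376, limma). Its partner Itgb7 had means of 8.46 ± 0.03 (SD, n = 4) and 8.41 ± 0.14 (SD, n = 3), a difference of -0.04 ± 0.09 (adjusted p = 0.946). Cdh1, the gene of its ligand E-cadherin, differed by -0.07 (adjusted p = 0.929). Of 17 measured genes of the CD103 partner, ligand and TGF-β list, Itgae was the 1 called, and the median was 0.04. Skil, a repressor within TGF-β signalling, had the next smallest p, with 8.77 to 8.80 in CD103 low and 8.92 to 9.03 in CD103 high arrays (0.21 ± 0.07, adjusted p = 0.44). None of the 15 genes of the GM-CSF, Flt3 and STAT5 list was called. In limma 2 were higher at an unadjusted p under 0.05, against 4.33% of all genes. Of the 15, 11 lay above 0, against 48.9% of all genes, and the median was 0.07. Csf2ra, which encodes the GM-CSF receptor α chain, differed by 0.26 ± 0.09 (adjusted p = 0.437), with overlapping arrays.

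After Itgae, the higher gene with the smallest p was Fcrla, which encodes an intracellular Fc receptor-like protein best known from B cells. Its CD103 low arrays were at 8.39, 8.36, 8.37 and 8.18 and its CD103 high arrays at 9.0, 9.07 and 9.16. The groups thus stood 0.75 ± 0.09 apart (adjusted p = 0.0121). Cd300c, a receptor of the CD300 family of myeloid surface proteins, was at 8.34, 8.66, 8.53 and 8.73 in CD103 low and at 9.22, 9.44 and 9.72 in CD103 high cells (0.90 ± 0.13, adjusted p = 0.0328). Pacsin1, an adaptor that bends membranes, was at 5.27, 4.75, 5.05 and 5.04 against 6.02, 6.07 and 5.70 (0.90 ± 0.13, adjusted p = 0.0294). Pacsin1 thus lay around the background level in CD103 low cells and above it in all 3 CD103 high arrays. The promoters of Fcrla and Cd300c are shown as examples of the higher genes with few CpG dinucleotides. Of the promoters found for called genes, only these held the IRF letters given next. Each line gives the 250 bases before the RefSeq start site, and the capitals mark a match to the IRF letters GAAANNGAA, which 7.13% of 32851 promoters of this length hold on either strand. Fcrla lies on the minus strand at chr1:170927584-170927833 and Cd300c on the minus strand at chr11:114960508-114960757 (GRCm38.p6).
Fcrla: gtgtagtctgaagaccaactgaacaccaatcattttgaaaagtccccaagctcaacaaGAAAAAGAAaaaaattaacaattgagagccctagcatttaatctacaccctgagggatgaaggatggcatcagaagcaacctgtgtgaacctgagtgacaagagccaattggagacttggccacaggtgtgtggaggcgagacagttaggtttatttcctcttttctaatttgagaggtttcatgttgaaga
Cd300c: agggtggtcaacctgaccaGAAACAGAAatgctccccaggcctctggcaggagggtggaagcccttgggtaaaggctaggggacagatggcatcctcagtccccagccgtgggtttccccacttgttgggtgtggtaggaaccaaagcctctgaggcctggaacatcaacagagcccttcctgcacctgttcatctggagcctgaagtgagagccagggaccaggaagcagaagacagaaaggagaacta

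Genes that act on lipids made up a part of the higher genes. Plpp3, which removes the phosphate from lysophosphatidic acid and sphingosine 1-phosphate, was at 5.75, 6.00, 6.01 and 5.91 in CD103 low and at 6.63, 7.15 and 7.09 in CD103 high arrays (1.04 ± 0.16, adjusted p = 0.0403). Plb1, a phospholipase, was at 4.97 to 5.13 in CD103 low cells and at 5.43, 6.01 and 5.93 in CD103 high cells, so that replicate 4 lay nearer to the other group (0.74 ± 0.11, adjusted p = 0.0403). Ttc39b, a scaffold protein that promotes the breakdown of the cholesterol sensor LXR, was at 7.20 to 7.29 against 7.59, 7.86 and 7.65 (0.47 ± 0.08, adjusted p = 0.0433). These are the 3 called of 18 measured genes of the lipid phosphate, phospholipid and cholesterol list, which was drawn up around them. In that list 6 genes had an unadjusted p under 0.05 and were higher, against 4.33% of all genes, 0 were lower, against 4.19% of all genes, and the median was 0.13. The others among the 6 were Mgll, a monoacylglycerol lipase (0.40, adjusted p = 0.315), the apolipoprotein gene Apoe (0.40, adjusted p = 0.548) and the phospholipase Pla2g7, whose means of 4.39 and 4.77 both lay under the background level of 5.12. Of the targets of LXR, the cholesterol exporter Abcg1 was at 8.59 to 8.77 in CD103 low and at 8.88 to 9.07 in CD103 high arrays, which did not overlap (0.30 ± 0.16, adjusted p = 0.672). The LXR gene Nr1h3 (4.80 and 5.02) and the related exporter Abca1 (4.12 and 4.11) lay under background in both groups.

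The remaining higher genes were of 3 unlike kinds. Gpr82, an orphan G protein-coupled receptor, was at 5.84, 5.54, 5.91 and 5.46 against 6.54, 6.49 and 6.79 (0.92 ± 0.14, adjusted p = 0.0413). Hcar1, the receptor for lactate, was at 4.75, 4.60, 4.93 and 4.52 against 5.47, 5.32 and 5.42 (0.70 ± 0.10, adjusted p = 0.0353). Chst9, a sulfotransferase of glycans, was at 2.76 to 2.95 against 3.61, 3.93 and 4.03 (0.96 ± 0.13, adjusted p = 0.0285). All Chst9 arrays, and the mean of Hcar1 over 13 arrays, lay within the range of the olfactory receptor genes, so these differences are between signals near background. For Hcar1 all PBS CD103 low arrays lay under the background level of 5.12 and all PBS CD103 high arrays a little above it.

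**Figure D2:**
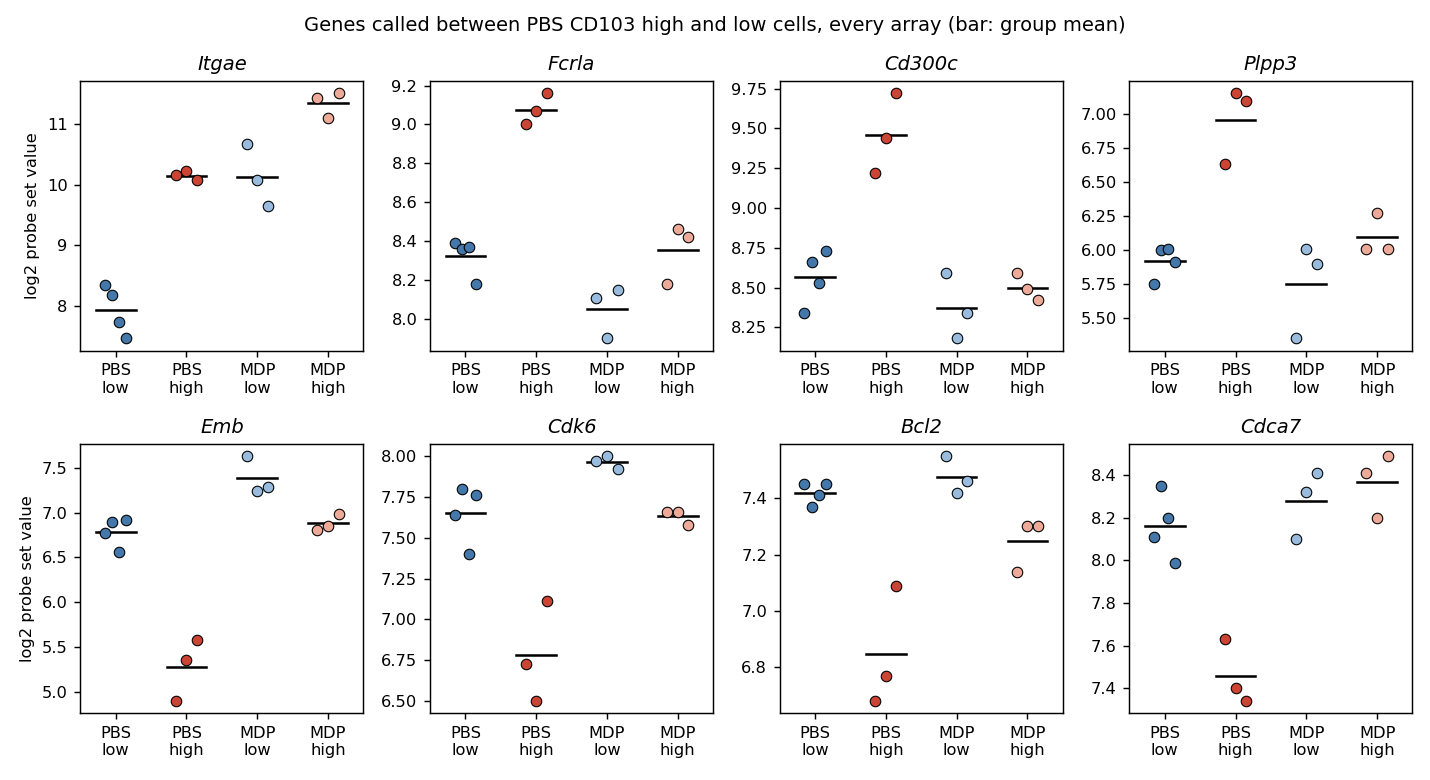
Log2 probe set values of 8 called genes in every array, 4 of PBS CD103 low, 3 of PBS CD103 high, 3 of MDP CD103 low and 3 of MDP CD103 high cells, each point an array and each bar a group mean. The top row holds genes higher and the bottom row genes lower in the PBS CD103 high arrays, and in all 8 the PBS groups do not overlap; the vertical axes differ between genes and do not start at 0.

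The strongest decrease was that of Emb, which encodes embigin, a membrane glycoprotein that helps monocarboxylate transporters reach the cell surface. It was at 6.77, 6.90, 6.56 and 6.92 in CD103 low arrays and at 4.90, 5.36 and 5.58 in CD103 high arrays. All CD103 low arrays thus lay above the background level, while CD103 high replicate 4 lay below it. The difference was -1.51 ± 0.15 (adjusted p = 0.00376). A second Emb probe set, with group means of 5.07 and 5.10, differed by 0.03, and the mean of both differed by -0.74. Of 11 measured genes of the lactate transport and sensing list, which was drawn up around Emb and Hcar1, 1 was called higher and 1 lower. Over all genes 0.0451% were called higher and 0.0316% lower. A further 4 of the list were lower at an unadjusted p under 0.05, against 4.19% of all genes. These included the lactate transporter Slc16a1 (-0.41, adjusted p = 0.324) and the glucose transporter Slc2a3 (-0.52, adjusted p = 0.373). The others were the lactate transporter Slc16a7 (means of 4.69 and 4.09) and the lactate dehydrogenase subunit Ldhb (4.15 and 3.94), both under the background level in both groups, so that their differences are between signals near background. Slc16a1 was at 7.24 to 7.78 in CD103 low and at 6.98 to 7.18 in CD103 high arrays, which did not overlap. Other genes of the list stayed near 0, with -0.05 for Ldha, 0.02 for Bsg, the partner chain of the transporters encoded by Slc16a1 and Slc16a3, and 0.04 for Slc16a3, so that the median of the list was -0.05.

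Genes of proliferation and survival were among the lower ones. Cdk6, a kinase that drives the G1 phase together with D-type cyclins, was at 7.64, 7.80, 7.40 and 7.76 against 6.73, 6.5 and 7.11 (-0.87 ± 0.13, adjusted p = 0.0328). Bcl2, which protects cells from apoptosis, was at 7.37 to 7.45 in CD103 low arrays and at 6.68, 6.77 and 7.09 in CD103 high arrays (-0.57 ± 0.09, adjusted p = 0.0413). For both genes CD103 high replicate 6 lay nearest to the other group. A second Bcl2 probe set, with group means of 4.33 and 4.21 under the background level, differed by -0.12. Cdca7, a target of MYC and E2F that acts with the chromatin remodeller HELLS, was at 8.11, 8.35, 8.20 and 7.99 against 7.63, 7.40 and 7.34 (-0.70 ± 0.11, adjusted p = 0.0433). The promoters of Cdca7 and Cdk6 are shown as examples of the lower genes. Promoters of the lower genes held more CpG dinucleotides at the median than those of the higher genes. Among the promoters found for lower genes, only those of Cdca7 and Cdk6 held a motif searched here. Capitals mark in Cdca7 the STAT letters TTCNNNGAA (7.02% of promoters) and, on the other strand, the E2F letters TTTCCCGC (0.895%), and in Cdk6 the E-box CACGTG (6.02%) and the TATA box TATAAA (12.4%). Cdca7 lies on the plus strand at chr2:72475969-72476218 and Cdk6 on the plus strand at chr5:3343643-3343892 (GRCm38.p6).
Cdca7: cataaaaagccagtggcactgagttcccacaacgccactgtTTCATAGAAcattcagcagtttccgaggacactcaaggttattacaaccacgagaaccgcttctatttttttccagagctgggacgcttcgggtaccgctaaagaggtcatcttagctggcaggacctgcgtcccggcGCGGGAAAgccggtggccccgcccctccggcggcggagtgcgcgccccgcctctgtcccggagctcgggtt
Cdk6: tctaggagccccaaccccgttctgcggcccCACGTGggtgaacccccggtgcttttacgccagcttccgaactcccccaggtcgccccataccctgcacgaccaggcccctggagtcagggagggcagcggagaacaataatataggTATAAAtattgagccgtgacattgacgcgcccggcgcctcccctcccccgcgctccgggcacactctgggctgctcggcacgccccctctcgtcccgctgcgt

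The 9 promoters found for 8 of the 10 higher genes held 1 to 26 CpG dinucleotides in 250 bases, with a median of 3. The 6 promoters found for 6 of the 7 lower genes held 6 to 36, with a median of 23, beside a median of 6 over all 32851 promoters. The ranges overlapped, since the higher genes Pacsin1 with 26, Ttc39b with 22, and Plpp3 and Hcar1 with 6 each lay within the values of the lower ones, of which Emb had the fewest with 6. Of the motifs searched on both strands, the other E2F letters TTTGGCGC (0.417% of all promoters), the PU.1 letters GAGGAAGT (2.44%), the RUNX letters TGTGGTT (4.4%) and the AP-1 letters TGANTCA (6.75%) were also included. Of these, PU.1, RUNX and AP-1 had a match in a promoter of Plb1. Among the higher genes, none of the searched motifs had a match for Ttc39b, Plpp3, Hcar1, Pacsin1 and Gpr82. The same held for the lower genes Bcl2, Ybx3, Emb and Vcl. A match is a run of letters and no measured binding site.

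The other lower genes were Ybx3, Vcl and Gm8579. Ybx3, a cold shock domain protein that binds RNA and DNA, was at 10.12 to 10.27 against 9.74, 9.60 and 9.54 (-0.54 ± 0.07, adjusted p = 0.0294). Vcl encodes vinculin, which links integrin adhesions to actin, and was at 8.57 to 8.66 against 8.25, 8.06 and 8.25 (-0.42 ± 0.07, adjusted p = 0.0413). Gm8579, a predicted gene, was at 5.80 to 6.10 against 5.54, 5.39 and 5.28 (-0.60 ± 0.09, adjusted p = 0.0353). Of 27 measured actin and focal adhesion genes, Vcl was called lower and Pacsin1 higher, and the median was 0.01. Actn1, which encodes the actin crosslinker α-actinin, was at 10.60 to 10.81 against at least 10.90 (0.26 ± 0.08, adjusted p = 0.402).

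**Figure D3:**
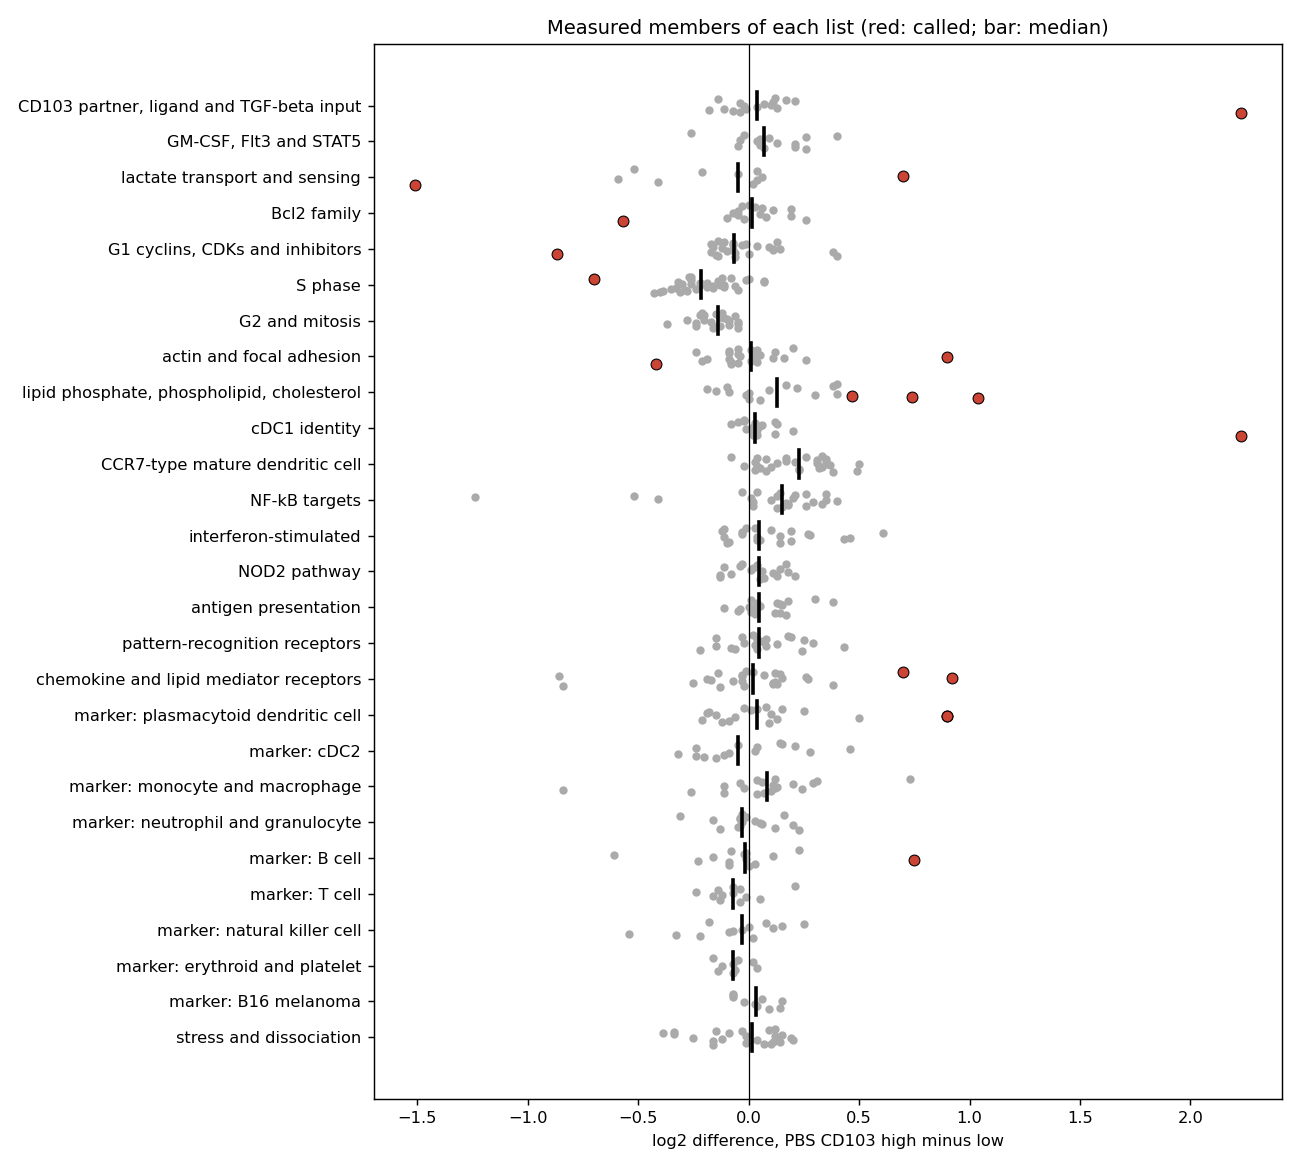
Each point is a measured gene of a list, placed by its log2 difference between PBS CD103 high and PBS CD103 low cells; red points are called genes and black bars list medians. The lists of S phase (median -0.21) and of G2 and mitosis (median -0.14) lie mostly left of 0 and those of CCR7-type mature dendritic cells (0.23) and NF-kB targets (0.15) mostly right of it, with few called members.

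Genes of S phase and of G2 and mitosis mostly lay below 0, by small amounts, and Cdca7 was the 1 called among them. Of 34 measured S phase genes, Cdca7 was called, 31 lay below 0 and the median was -0.21. Over all genes 11328 of 22180 lay below 0. Another 12 had an unadjusted p under 0.05 and were lower, against 4.19% of all genes, and 0 were higher. They include the subunits of the replicative helicase Mcm2 (-0.43, adjusted p = 0.365), Mcm6 (-0.39) and Mcm4 (-0.40) and the clamp loader gene Rfc5, which was at 7.80 to 7.91 against 7.56 to 7.63 (-0.26 ± 0.07, adjusted p = 0.323). The groups were free of overlap for 4 of the 34 genes, against 4.05% of all genes that were lower without overlap. All 24 measured genes of G2 and mitosis lay below 0, beside those 11328 of 22180 genes, with a median of -0.14 and 0 called in limma. Aurka, a kinase of the spindle poles, was the 1 that had an unadjusted p under 0.05 (-0.37, adjusted p = 0.557). Mki67, the proliferation marker Ki-67, had means of 10.26 and 10.21. Of 26 G1 regulators, Cdk6 was the 1 called, E2f3 had an unadjusted p under 0.05 (-0.17), and the median was -0.06.

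The cell cycle means per array overlapped between the gates. The S phase mean was 8.33, 8.33, 8.26 and 8.06 in CD103 low and 8.22, 7.97 and 7.91 in CD103 high arrays. That of G2 and mitosis was 8.12, 8.07, 8.06 and 7.86 against 8.11, 7.85 and 7.67. Within shared number 6 both means were lower in CD103 high cells. Within shared number 4 the S phase mean was lower by little (8.26 and 8.22) and that of G2 and mitosis was higher (8.06 and 8.11). In both lists CD103 high replicate 4 lay at the level of the CD103 low arrays and CD103 low replicate 6 at that of the CD103 high arrays. Without CD103 high replicate 4 the medians were -0.31 and -0.24, and without replicate 6 they were -0.16 and -0.05. With CD103 low arrays numbered 1 and 3 left out they were -0.12 and -0.11.

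Genes of mature dendritic cells mostly lay above 0. Of 29 measured CCR7-type mature genes 0 were called, 27 lay above 0, against 48.9% of all genes, and the median was 0.23. An unadjusted p under 0.05 was found for 6, all higher, against 4.33% of all genes. These were the serpin Serpinb6b (0.33 ± 0.08, adjusted p = 0.269), the cytokine gene Il15 (0.37 ± 0.11, adjusted p = 0.372), the costimulatory ligand Cd80 (0.32), the checkpoint ligand Pdcd1lg2 (0.31) and the signalling genes Birc3 (0.21) and Traf1 (0.35). The groups were free of overlap for 8 of the 29, against 4.48% of all genes that were higher without overlap. Ccr7 itself, a chemokine receptor of migrating dendritic cells, differed by 0.38 at an unadjusted p of 0.265. The mean of the list was 7.92, 7.99, 7.88 and 7.73 in CD103 low and 7.94, 8.28 and 8.05 in CD103 high arrays, and CD103 high replicate 5 stood highest. Without that array the median was 0.12, and without replicate 4 it was 0.32.

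Of 25 NF-kB targets 0 were called in limma, and 6 were higher at an unadjusted p under 0.05, against 4.33% of all genes. In this list 21 lay above 0, against 48.9% of all genes. The median was 0.15, which was 0.08 without CD103 high replicate 5. The mean of the list overlapped, at 8.32, 8.31, 8.21 and 7.94 in CD103 low and 8.18, 8.45 and 8.16 in CD103 high arrays. It was lower in CD103 high cells within shared number 4 and higher within number 6. Rel, an NF-kB subunit, was at 11.64 to 11.71 against 11.84 to 11.86 (0.18 ± 0.07, adjusted p = 0.467). The cytokine gene Il1b was at 10.73 to 10.89 against 11.11 to 11.38 (0.40 ± 0.15, adjusted p = 0.486). Ccl3, at 8.84, 8.76, 7.07 and 6.24 against 6.65, 6.76 and 6.06, had the largest difference of the list (-1.24 ± 0.60, adjusted p = 0.611). Its 2 high arrays are CD103 low replicates 1 and 3, and with those left out the difference was -0.17. Of 24 stress and dissociation genes 0 were called and 0 had an unadjusted p under 0.05, and the median of 0.01 was 0.27 with those 2 arrays left out.

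Antigen presentation genes differed by small amounts. The mean of the list was 11.01 to 11.05 in CD103 low and 11.10 to 11.16 in CD103 high arrays, which did not overlap. Of 20 antigen presentation genes 0 were called in limma, and 4 were higher at an unadjusted p under 0.05, against 4.33% of all genes. In this list 16 lay above 0, against 48.9% of all genes, with a median of 0.05. H2-Oa, a chain of the peptide-loading regulator H2-O, was at 10.83 to 11.05 against 11.15 to 11.49 (0.38 ± 0.10, adjusted p = 0.301), and Ciita, the master regulator of MHC class II, differed by 0.15 ± 0.06 (adjusted p = 0.539). Of 22 pattern-recognition receptors 0 were called, and 3 had an unadjusted p under 0.05, with 0.43 for Tlr6, 0.29 for Tlr12 and -0.22 for Tlr2 (adjusted p from 0.439 to 0.475). Nod2, the receptor for MDP, had means of 6.64 and 6.69. Of 18 NOD2 pathway genes 0 were called, 1 was higher at an unadjusted p under 0.05 (Birc3, 0.21), and the median was 0.04. Of 22 interferon-stimulated genes 0 were called and 0 had an unadjusted p under 0.05.

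Among 27 chemokine and lipid mediator receptors, Gpr82 and Hcar1 were called, and the median was 0.02. Ccr2, which draws monocytes to the chemokine CCL2, was at 5.87 to 6.26 in CD103 low and at 4.77 to 5.38 in CD103 high arrays (-0.84 ± 0.25, adjusted p = 0.371). Gpr183, an oxysterol receptor that positions dendritic cells in the spleen, was at 6.97, 7.03, 6.97 and 7.88 against 6.19, 6.22 and 6.64 (-0.86 ± 0.26, adjusted p = 0.374). Neither pair of groups overlapped. Of 16 measured genes of the Bcl2 family, Bcl2 was the 1 called. Bcl2l1, which encodes the related survival protein Bcl-xL, was at 6.00 to 6.22 against 6.34 to 6.38 (0.26 ± 0.09, adjusted p = 0.452), opposite in sign to Bcl2.

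**Figure D4:**
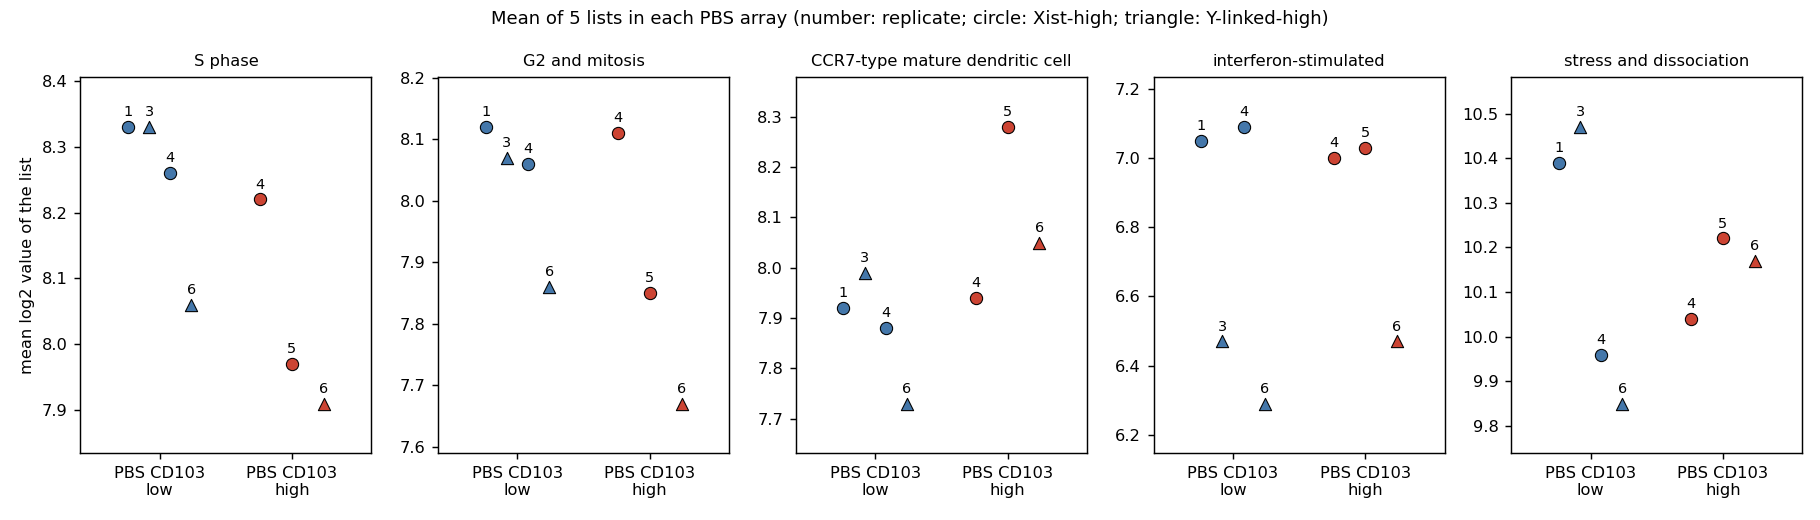
Mean log2 value of 5 lists in each of the 7 PBS arrays, with the replicate number beside each point, circles for arrays with high Xist and triangles for arrays with high Y-linked genes. S phase, G2 and mitosis and the mature list overlap between the gates, the interferon-stimulated list follows the Xist kind (7.0 to 7.09 against 6.29 to 6.47), and the stress list is highest in CD103 low replicates 1 and 3.

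Markers of other cell types were examined because the gate could hold other cells. Pacsin1 and Cd300c are among 19 measured markers of plasmacytoid dendritic cells. This list had a mean of 6.16 to 6.26 in CD103 low and 6.29 to 6.39 in CD103 high arrays, which did not overlap. That mean includes Pacsin1 and Cd300c, which were called in these same arrays (0.90 each), so it is no separate sign of a shift of the list. Its median was 0.04, with 11 of 19 above 0, against 48.9% of all genes, and its defining marker Siglech lay at 5.20 to 5.29 and 5.17 to 5.63. In limma 3 of the 19 were higher at an unadjusted p under 0.05, Pacsin1 and Cd300c among them, and 1 was lower (Ly6d, -0.21). Without overlap 4 were higher, against 4.48% of all genes, and 1 lower, against 4.05%. Cx3cr1, which marks another form of CD8+ dendritic cell, had means of 6.09 and 6.20. Fcrla was 1 of 14 B cell markers, of which 4 lay above 0, with -0.09 for Cd79a, a chain of the B cell receptor, and -0.09 for Pax5. This list averaged 5.40 to 5.56 against 5.45 to 5.49, and another marker, Cd22, an inhibitory receptor of B cells, was lower (-0.61 ± 0.13) without passing the threshold (adjusted p = 0.149). At an unadjusted p under 0.05 in limma, 2 of the 14 were higher (Fcrla and Pou2af1, 0.23) and 2 lower (Cd22 and Ebf1, -0.23). Pou2af1 and Ebf1 had means under the background level. The mean level of the list overlapped between the gates for 15 cDC2 markers (5.33 to 5.46 against 5.36 to 5.39), 20 of monocytes and macrophages (5.48 to 5.75 against 5.66 to 5.70), 17 of neutrophils (4.11 to 4.21 against 4.09 to 4.20), 12 of T cells (4.91 to 5.00 against 4.82 to 4.96) and 13 of natural killer cells (4.84 to 5.04 against 4.76 to 4.91). It was 4.73 to 4.77 against 4.62 to 4.77 for 9 erythroid and platelet markers and 4.80 to 4.94 against 4.83 to 4.98 for 10 of B16 melanoma. Of these 7 lists 0 members were called in limma. At an unadjusted p under 0.05 in limma stood 3 cDC2 markers, with Cd4 (0.46) and Esam (0.28) higher and Itgam (-0.24) lower. There were 2 of monocytes and macrophages, Fcgr4 higher (0.73) and Ccr2 lower (-0.84). A further 1 of neutrophils (Prg2, -0.31, with means under the background level) and 2 of natural killer cells were lower. The latter were Nkg7 (-0.18) and Klrk1, which was at 8.96 to 9.13 against 8.62 to 8.80 (-0.33 ± 0.07, adjusted p = 0.195, limma). In MDP mice Klrk1 differed by -0.39 (adjusted p = 0.051, limma). Over all genes 4.33% were higher and 4.19% lower at that p. Cd209a, a cDC2 marker, had probe sets that disagreed, with -0.32 for the set used and 1.18 for the other. The part of other cell types in the called genes was not tested.

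A further 4 genes just outside the threshold, with adjusted p from 0.0509 to 0.0858, did not overlap between the gates. They were Ddx43, a helicase (0.76), Fndc5, the precursor of irisin (0.62), Dkk3, a secreted protein of the Dickkopf family (0.51), and Lgals1, which encodes galectin-1 (-0.70). Just inside it were Cdca7 and Ttc39b, both at 0.0433. The genes whose values followed Itgae most closely over the 7 PBS arrays were Adipor1 (Pearson r of 0.983), Fcrla (0.979), Dapk1 (0.977), Olfr575 (0.976) and Dhrs3 (0.973). Those that ran most opposite were Coro1a (-0.986), Acss1 (-0.984), Rps23 (-0.978), Ewsr1 (-0.978) and Anxa2 (-0.977). These are descriptions over points that share the 2 gates, and of the 10 genes Fcrla was the 1 called.

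The MDP arrays give a second pair of gates. They also entered the estimate of the spread by which the 17 genes were called, which favours genes with little spread within the MDP groups, so tests of these genes in the MDP arrays are not independent of the choice. There 116 genes (0.523%) passed the threshold between CD103 high and low cells in limma, and 0 of the 17 did (8 at an unadjusted p under 0.05, beside 10.2% of all genes). Of the 17 genes 15 had the same sign as in PBS mice (88.2%), beside 49.3% of all genes. All 10 higher genes and 5 of the 7 lower genes kept their sign, while Cdca7 (0.09) and Gm8579 (0.12) lay above 0. The median size of the difference was 0.24 in MDP and 0.75 in PBS mice, beside 0.09 and 0.08 over all genes. Each of the 17 was smaller in MDP mice, with the reservation that they were chosen for their size in PBS arrays.

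Itgae remained the largest of them. It was at 10.68, 10.07 and 9.64 in MDP CD103 low and at 11.44, 11.10 and 11.51 in MDP CD103 high arrays (1.22 ± 0.25, adjusted p = 0.0529). Emb was at 7.63, 7.24 and 7.29 against 6.81, 6.85 and 6.98 (-0.51 ± 0.16, adjusted p = 0.254). Ddx43, just outside the threshold in PBS mice, was called in MDP mice (0.85 ± 0.13, adjusted p = 0.0193). Pacsin1 (0.07) and Cd300c (0.13) came nearest to 0 among the higher genes.

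**Figure D5:**
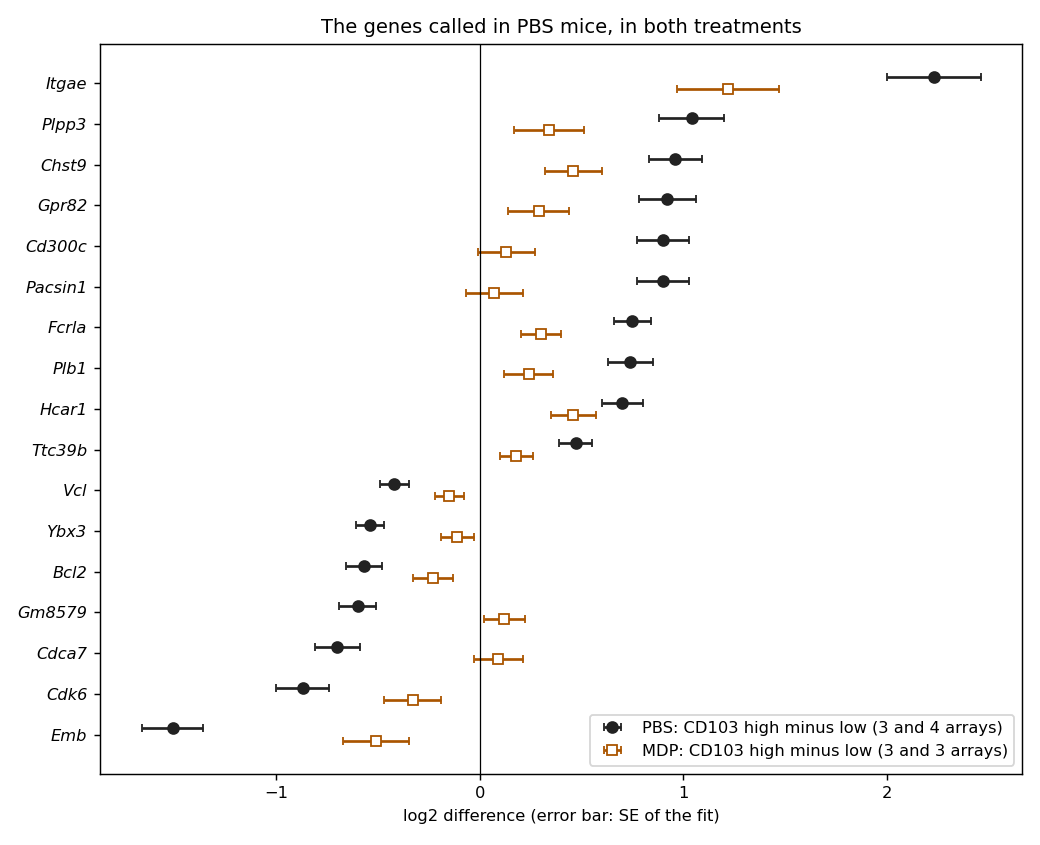
Log2 difference between CD103 high and CD103 low cells for the 17 genes called in PBS mice, black circles for PBS (3 against 4 arrays) and open squares for MDP (3 against 3 arrays), with the SE of the fit as error bars. All 17 squares lie nearer to 0 than their circles, and those of Gm8579 and Cdca7 lie on the other side of 0.

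Whether the difference between the gates itself differs between treatments was tested as an interaction, in which 16 of 22180 genes (0.0721%) passed. That count was 0 with either fixed replicate block, with the Xist kind as a term, with PBS CD103 low arrays numbered 1 and 3 left out, and without any single one of PBS CD103 low replicates 1, 3 and 4, PBS CD103 high replicates 5 and 6, MDP CD103 low replicate 3 and MDP CD103 high replicates 2, 3 and 4. It was 41 without PBS CD103 low replicate 6 and 107 without PBS CD103 high replicate 4. None of the 17 genes was among them, with adjusted p from 0.0704 (Gm8579) to 0.668 (Hcar1), although 16 of the 17 had an unadjusted p under 0.05 in limma, beside 9.63% of all genes. That test uses the PBS arrays on which the genes were chosen. For Emb the change was 1.00 ± 0.22 (adjusted p = 0.1). The 16 genes that passed all had an adjusted p of 0.0486. They include the cohesin acetyltransferase Esco2 (-0.10 in PBS and 1.33 in MDP mice), the kinetochore gene Ndc80 (-0.44 and 0.95), the chromatin regulator Atad2 (-0.47 and 0.90) and Rfc5 (-0.26 and 0.52). All 16 lay below 0 in PBS and above 0 in MDP mice. In MDP mice the list medians were 0.51 for S phase, 0.70 for G2 and mitosis and -0.55 for the mature genes, each of the opposite sign to that in PBS mice. There MDP CD103 low replicate 1 stood apart. Its mean was 8.78 for the mature list (7.83 and 7.85 in replicates 2 and 3) and 7.48 for G2 and mitosis (8.08 and 8.01). The MDP CD103 high arrays were at 7.35 to 7.48 and at 8.29 to 8.66.

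The count of 17 genes rests on the spread estimated over all 13 arrays and on single arrays of both treatments. It was 1 (Itgae) when the 7 PBS arrays were fitted alone, 2 (Itgae and Emb) with a term for replicate numbers 1 to 3 against 4 to 6, 1 (Itgae) with PBS CD103 low arrays numbered 1 and 3 left out, 2 to 9 with single PBS arrays left out, and 7, 3 and 4 without MDP CD103 high replicate 2, 3 and 4. Within numbers 4 to 6 the sizes were similar, for example 2.56 for Itgae, -1.46 for Emb, 0.80 for Fcrla and -0.80 for Cdk6. With the replicate number within a treatment as a block, 23 genes passed with the block as a random term (adjusted p of 0.00125 for Itgae and 0.0012 for Emb) and 1 with it as a fixed term, and with the number over all groups as a fixed block 0 passed. Emb had a difference of -1.50 (adjusted p = 0.184) and -1.56 (adjusted p = 0.107) under the fixed blocks, and Itgae one of 2.52 (adjusted p = 0.00946) and 2.42 (adjusted p = 0.107).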

How the data were processed

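RNA of 13 samples of sorted splenic dendritic cells was measured on arrays of the Affymetrix Mouse Gene 2.0 ST type. The authors deposited log2 values per probe set, computed by RMA in Affymetrix Expression Console, per the submitters' processing notes. No source used here gives versions or the genome build. RMA makes the arrays' distributions alike, so a change shared by most genes would be removed. Of 41345 probe sets, 23521 had 1 symbol, 1814 several and 16010 none listed, and the first gave 22180 genes. Where a gene had several probe sets (1082 genes), the brightest on average was kept. Array medians were 5.00 to 5.13, and no arrays were identical. The number of arrays limits the precision (median SE 0.103).

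The model held a mean for each of the groups over 13 arrays and was fitted with limma 3.58.1 in R 4.3.3 (lmFit, eBayes), with 9 residual and 3.86 prior degrees of freedom. Tests were two-sided, with Benjamini-Hochberg adjustment over all genes. The code was tested on simulated data. Tables and plots were made with Python 3.11.15, pandas 2.3.3, numpy 2.4.6 and matplotlib 3.10.9. Promoters are those of RefSeq, GRCm38.p6, matched by gene ID.

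The comparison, the 27 gene lists (9 of them marker lists) and the rules were chosen with earlier results of these data known. Genes were named from every gene past the threshold, those just outside it without overlap, the members of each list with the smallest p in each direction, 17 genes always, and the 5 most and least correlated with Itgae. Other list members named have an unadjusted p under 0.05 or were picked after their values were seen.

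Same-numbered arrays of a treatment deviated together (4 pairs, r from 0.20 to 0.37), while same-numbered arrays of different treatments did not in every case (5 pairs, -0.24 to 0.45). All 4 pairs within a treatment also shared the Xist kind. Of the 5 across treatments, the 2 that shared it had r of 0.45 and 0.12, and the rest -0.24 to 0.01. These correlations thus cannot tell a shared number from a shared kind, and differently numbered arrays were not compared. That numbers pair gates within a treatment is a hint from the data and not from the labels. The main fit held no block, and the pairing entered only the alternatives and the values within shared numbers. Alternatives changed the samples fitted, the blocks, probe sets, filter, centring, weights and terms for the Xist kind and, added after the values were seen, for the replicate numbers.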

Additional observations from a re-analysis of the deposited data

Results flagged for a closer look

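The difference between the gates differed between MDP and PBS mice for 16 genes by the interaction term, 4 of them with their values above. In the 17824 probe sets without a single gene symbol, which the comparison of genes does not use, probe set 17218835 differed by -2.12 ± 0.20 (adjusted p = 0.00501, limma). It was at 8.91, 9.25, 8.91 and 8.96 in PBS CD103 low and at 7.08, 6.70 and 6.88 in PBS CD103 high arrays, and differed by -0.77 in MDP mice. Its gene is not named in the tables used here.

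In the 4 PBS CD103 low arrays, 1 array stood far from the other 3 for 16 of 117 named genes, judged by its gap to the nearest other array over the range of the group against Dixon's 95% critical value. Chance alone flags about 1 in 20 independent groups, but these genes share arrays and many were named for a small p, so the 16 cannot be set against that share. Among the called genes, Fcrla was at 8.18 in replicate 6 (others 8.36 to 8.39), Chst9 at 2.76 in replicate 1 (2.92 to 2.95), Ttc39b at 7.29 in replicate 4 (7.20 to 7.21) and Ybx3 at 10.27 in replicate 3 (10.12 to 10.14). For Chst9 and Ybx3 the single array lay farther from the CD103 high arrays, and for Ttc39b nearer to them. Replicate 6 also stood apart for Cdkn1a (7.88, others 8.52 to 8.53), Gpr183 (7.88, others 6.97 to 7.03), Tlr12 (8.16, others 8.50 to 8.53) and Bcl2a1a (10.87, others 11.02 to 11.04). Replicate 1 stood apart for Itgb8 (4.66), E2f3 (6.64), Pltp (4.49) and Mitf (6.64), replicate 3 for Ppbp (3.93) and Epor (5.17), and replicate 4 for S100a8 (2.28) and Car1 (2.90).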

How the results depend on the processing

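The 17 called genes kept their sign in each of 26 alternatives in which they were tested. Where an alternative only left arrays out or changed the estimate of the spread, the sign could not change, since the groups do not overlap. Their calls were kept in 25 for Itgae, 22 for Emb, 17 for Fcrla and 7 for Vcl, Cdca7 and Ttc39b. The count of 17 was 1 with only the PBS arrays, 2 with a term for the replicate numbers, 1 with PBS CD103 low arrays numbered 1 and 3 left out, and 2 to 23 with single arrays left out. As a replicate block, the number within a treatment gave 23 as a random and 1 as a fixed term (2 residual degrees of freedom), and the number over all groups gave 20 and 0. With the Xist kind as a covariate it was 12, of which 10 were among the 17. The 14 called list members were 1, 2 and 1 under the first 3 of these settings, 0 and 1 with the fixed replicate blocks over all groups and within a treatment, 8 with the Xist kind, and 2 to 14 with single arrays left out. The interaction count of 16 was 116 with a variance trend and robust fit, 134 with genes above background, 35 with array weights, 27 and 41 with the random replicate block over all groups and within a treatment, 0 with either fixed block, 0 with the Xist kind, 7 with the replicate numbers, 0 with PBS CD103 low arrays numbered 1 and 3 left out, and 0 to 107 with single arrays left out. The single probe set without a gene name was lost without PBS CD103 high replicate 5 or 6 (0 to 1). Where fewer arrays were fitted, fewer degrees of freedom remained. Signals near background limit Chst9 and Hcar1.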

Other observations

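Interferon-stimulated genes followed the Xist kind of an array rather than the gate in PBS mice, a pattern noticed after the values were seen. The mean of 22 such genes was 7.0 to 7.09 in the 4 PBS arrays with high Xist and 6.29 to 6.47 in the 3 with high Y-linked genes, and both kinds hold CD103 high and low cells. In MDP arrays the ranges overlapped, at 6.49 to 6.75 and 6.39 to 6.74. All 4 same-numbered pairs of gates within a treatment share the kind, so the arrays of a kind are not independent and no test is given. In a limma fit with the kind as a term beside the groups, 21 of the 22 had a higher estimate in the Xist kind, with a median of 0.34. The estimate was 0.67 for Irf7, the regulator of type I interferon genes, and 0.70 for Xaf1, an interferon-induced gene.

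Hspa1a, a heat shock protein gene, reached 13.35 in the 7 arrays numbered 1 to 3, all of which lay above the 12.13 to 12.58 of the 6 numbered 4 to 6, across both treatments and both gates.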
